A study of Mus musculus with 2 samples.

Results

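Among 26466 cells of mouse perivascular fat that passed the filters, 985 carried the signature of endothelial cells, the cells that line vessels, and no UMI of Pdgfra. Of these, 953 came from the library labelled old (6.95% of its 13711 cells, 95% interval 6.53 to 7.39) and 32 from the library labelled young (0.251% of 12755, 0.172 to 0.354). A barcode counted as a member if 500 genes or more were detected in it and no more than 10% of its UMIs were mitochondrial. It also had to hold at least 1 UMI (unique molecular identifier, 1 captured RNA molecule) of at least 3 of Pecam1, Cdh5, Egfl7, Emcn, Tie1 and Kdr, and none of Pdgfra, a receptor of fibroblastic stromal cells. Those 7 genes chose the cells, so their values are a description and support nothing else.

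Endothelial cells form a sheet held together by junctions of Cdh5 (VE-cadherin) and claudins, and they keep their identity through ETS, SOX and GATA transcription factors. Those of small veins hold P-selectin and von Willebrand factor, display E-selectin and ICAM-1 when exposed to inflammatory cytokines, and so let leukocytes leave the blood. Capillary endothelium of adipose tissue is known for fatty acid uptake, through proteins such as Cd36 and Gpihbp1, and arterial endothelium for Notch ligands and Sox17.

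Both libraries were made from perivascular adipose tissue dissected from the aorta of mice of genotype WT, and the series set young against old. The fat was digested with collagenase, strained and cleared of red cells, and the suspension was labelled as primary perivascular stromal cells, so that endothelial cells were not its stated content. Libraries used the 10x Genomics Chromium 3′ chemistry, version 2. There was 1 library per age, and no source used here gives the ages, the number of mice behind each library or their sex. Age and library therefore cannot be told apart, differences lack any check across replicates, and p-values are not reported.

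The young file held 13104 barcodes with 130398999 UMIs and the old file 14636 with 147166475. Depth per cell was close between the groups compared, with medians of 10212 UMIs in the old members (range 900 to 38710), 9363 in the young members (1473 to 26698), 9425.5 in the other old cells and 9178 in the other young cells. The members summed to 10456393 UMIs in the old and 327926 in the young library. Between the files 275 barcodes were shared, among them those of 13 old members and of 0 young members, and no barcode was a member in both. Values are given as CPM, the UMIs of a gene summed over a group of cells and scaled to all UMIs of that group. Where a group held 0 UMIs of a gene, ratios used 3 UMIs, which is 0.287 CPM in the old and 9.15 CPM in the young members. Intervals are exact (Poisson for ratios, Clopper-Pearson for shares) and cover counting error only.

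Promoter sequences show some of the genes on which the account turns, from 250 bases before to 50 after the start of transcription. CAGGAAG is a core of sites bound by ETS factors such as Erg and Fli1, and it was searched on both strands. It stood in 13.3% of all 32851 promoters of the RefSeq table (GRCm38.p6). A promoter with it was found for Egfl7 (chr2:26583615-26583914, + strand), which is a rule gene, and for 3 genes the rule did not use. These were Sele (chr1:164047984-164048283, + strand), Ackr1 (chr1:173333454-173333753, - strand) and Ctla2a (chr13:60936576-60936875, - strand). Each is printed 5′ to 3′ along its gene with CAGGAAG, or CTTCCTG where the match lies on the other strand, in capitals.
Egfl7: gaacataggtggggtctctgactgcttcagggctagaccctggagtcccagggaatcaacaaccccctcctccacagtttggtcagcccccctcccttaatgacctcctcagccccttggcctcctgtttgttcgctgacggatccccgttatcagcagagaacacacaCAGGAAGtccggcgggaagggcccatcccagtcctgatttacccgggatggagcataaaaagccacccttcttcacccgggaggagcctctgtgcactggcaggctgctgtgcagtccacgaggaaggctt
Sele: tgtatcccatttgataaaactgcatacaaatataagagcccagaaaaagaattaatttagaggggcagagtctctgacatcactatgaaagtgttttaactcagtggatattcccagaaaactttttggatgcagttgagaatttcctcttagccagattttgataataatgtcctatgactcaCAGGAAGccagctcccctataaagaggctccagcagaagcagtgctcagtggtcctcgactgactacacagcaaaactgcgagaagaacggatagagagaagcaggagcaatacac
Ackr1: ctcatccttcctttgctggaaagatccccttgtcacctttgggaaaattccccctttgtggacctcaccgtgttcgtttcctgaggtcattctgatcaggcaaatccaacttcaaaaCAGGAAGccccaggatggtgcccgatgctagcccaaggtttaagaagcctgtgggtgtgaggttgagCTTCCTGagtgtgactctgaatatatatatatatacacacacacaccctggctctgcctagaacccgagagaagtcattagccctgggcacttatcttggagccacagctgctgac
Ctla2a: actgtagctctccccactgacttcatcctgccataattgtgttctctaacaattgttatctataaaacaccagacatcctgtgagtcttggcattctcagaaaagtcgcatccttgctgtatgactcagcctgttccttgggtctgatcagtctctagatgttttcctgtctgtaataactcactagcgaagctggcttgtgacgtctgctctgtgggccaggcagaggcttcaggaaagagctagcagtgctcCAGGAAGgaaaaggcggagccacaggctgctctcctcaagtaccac
The first match lay 81 bases before the start in Egfl7, 66 before it in Sele, 133 before it in Ackr1 and 4 after it in Ctla2a. By list, 7 of 23 promoters of pan-endothelial genes held CAGGAAG (30.4%, for 19 of 32 genes matched), and so did 6 of 14 promoters of leukocyte adhesion molecules (42.9%, for 14 of 25). A second ETS core, CCGGAA, stood in 14.9% of all promoters and was less frequent in both lists, at 8.70% of the pan-endothelial and 7.14% of the adhesion promoters. The promoters of Tie1, Cldn5, Selp, Edn1, Icam1 and Prox1 held no CAGGAAG in this window. Another promoter of Egfl7 (chr2:26586386-26586685, + strand) also lacked it. Cdh5, Esam, Csf3 and Sox17 were not matched to the table. A match is a description of the letters and not a binding site.

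The number of the 6 rule markers held split the old library into unequal parts. Without Pdgfra, 2679 old cells held none of them, 809 held 1, 154 held 2, 139 held 3, 362 held 4, 321 held 5 and 131 held all 6. In the young library the same counts ran 5301, 620, 27, 2, 12, 12 and 6. The old counts thus dipped at 3 markers, between 154 at 2 and 362 at 4, and were lower only at 6. The rule draws its line between 2 and 3. Just inside it, the 139 old cells with 3 markers summed to 28.2 CPM of Cldn5, a tight junction claudin, and 95.7 CPM of Esam, an adhesion protein of endothelial junctions. Just outside it, the 154 with 2 markers summed to 3.95 and 17.1 CPM, while Col1a1, a fibrillar collagen of stromal cells, stood at 395 CPM inside and 1283 CPM outside. Among the rule genes, Egfl7, a secreted vascular protein, was the most abundant, at 931 CPM in the old and 1266 CPM in the young members. Kdr, the main VEGF receptor, was the least abundant, at 42.3 and 85.4 CPM.

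**Figure D1:**
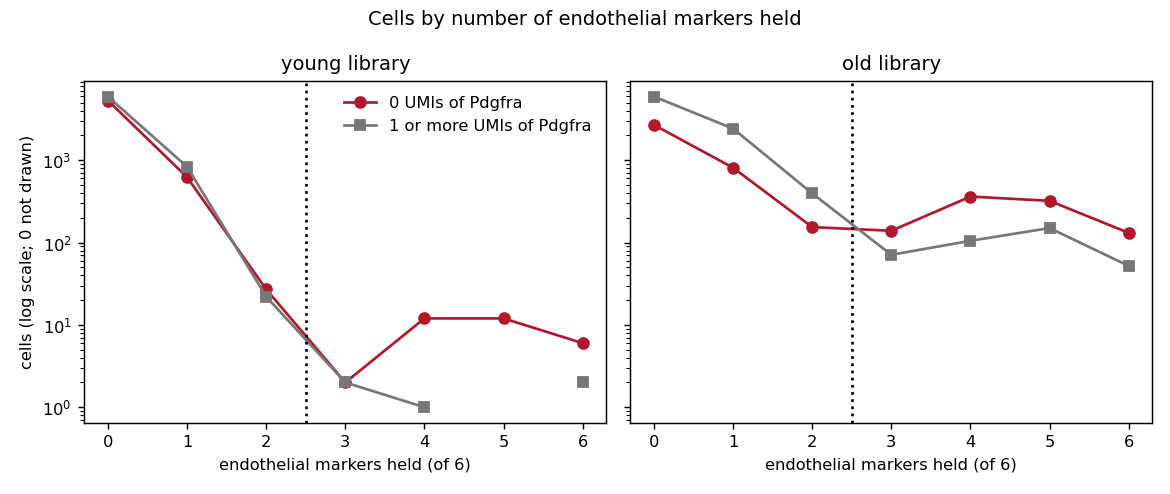
Cells of each library (vertical axis, log scale) by how many of the 6 rule markers they held (horizontal axis), for cells without and with a UMI of Pdgfra. Members lie to the right of the dotted line among cells without Pdgfra, and the old library shows a second peak there, at 4 markers. Old cells with Pdgfra rise again too, to 150 at 5 markers, and young cells without Pdgfra to 12 at 4 and at 5.

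The label was checked against 32 pan-endothelial genes the rule did not use. An old member held a median of 12 of these (range 0 to 25, with none in 1 cell) and a young member 13 (6 to 24), against 1 in old mesenchymal cells, here the 5926 cells with Pdgfra and none of the rule markers. Old members with exactly 3 rule markers held 9. Another 378 old and 5 young cells met the marker rule but held Pdgfra. These 378 carried a median of 14548 UMIs and 11 pan-endothelial genes, and 36.2% of them had doublet scores among those removed in the doublet alternative, against 6.19% of the old members and 10.6% of the other old cells. They were counted among the other cells, which raises the level of endothelial genes there.

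Endothelial identity genes separated the members from the other cells without exception. In the old library 32 of 32 pan-endothelial genes could be compared, and each exceeded the other cells by 2-fold or more, with a median log2 ratio of 4.37 and a range from 2.53 for Eng to 4.99 for She. Across all 11621 genes compared there, 8.42% were at least 2-fold higher, 15% at least 2-fold lower and the median was -0.07. In the young library 17 of the 32 could be compared and all 17 were higher, with a median of 6.82, against 13.2% of 2621 genes higher and 10.3% lower. Because the rule picked cells by genes that go together with these, the counts describe the label and carry no test. Myct1, a small membrane protein of endothelium, summed to 310 CPM in the old members and 12.6 CPM in the other old cells. Esam summed to 117 and 5.18 CPM. Nos3, the endothelial nitric oxide synthase, was low in absolute terms at 16.8 CPM but also above the 1.51 CPM of the other cells.

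**Figure D2:**
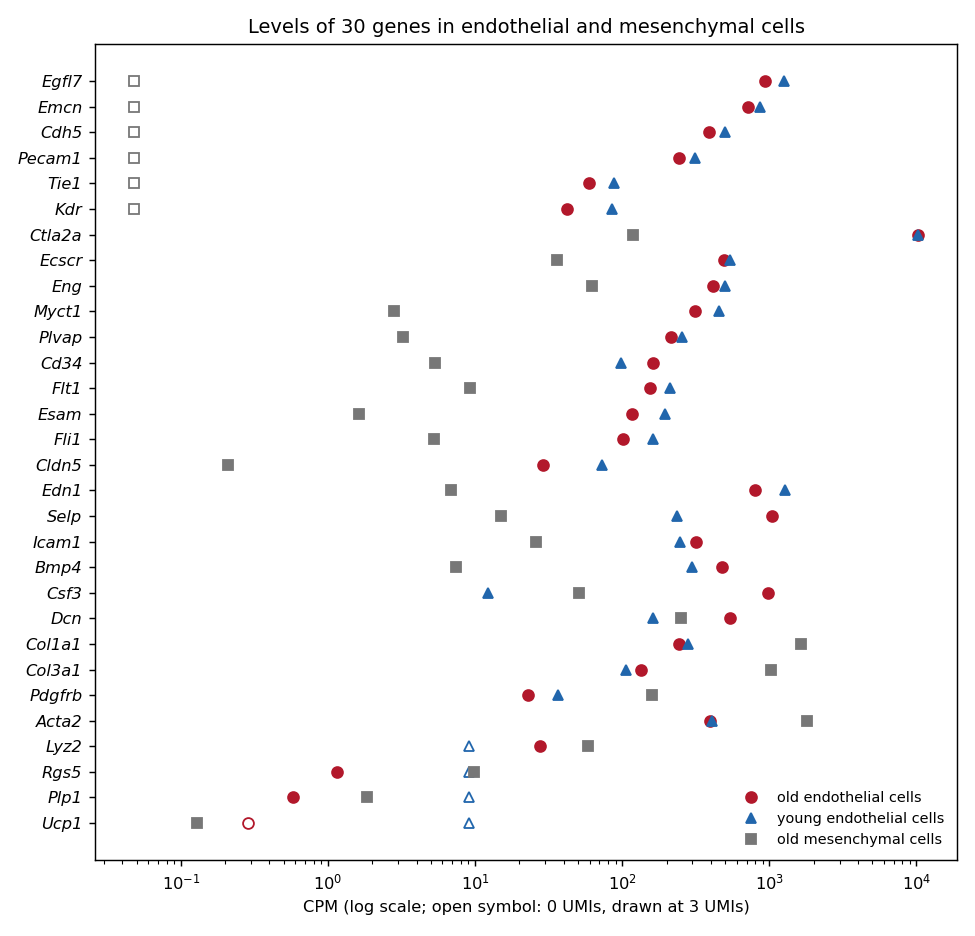
Levels of 30 genes (CPM, log scale) in old members, young members and old mesenchymal cells, with open symbols for 0 UMIs drawn at 3 UMIs. The first 6 genes chose the members and are at 0 in mesenchymal cells by definition. Endothelial genes from Ctla2a to Bmp4 lie higher in both groups of members, while Col1a1, Col3a1, Pdgfrb and Acta2 lie higher in mesenchymal cells.

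Among 34 endothelial transcription factors compared in the old library, 18 were at least 2-fold higher in the members and 6 lower, with a median log2 ratio of 1.75. Erg, an ETS factor needed for endothelial identity, stood at 5.45 CPM against 0.207 CPM (log2 ratio 4.72). Fli1, a related ETS factor, stood at 102 against 8.01 CPM. Hhex, a homeobox factor of early endothelium, reached 126 against 5.27 CPM, and Sox7, Sox17 and Sox18, which act in vessel formation, were all higher. The exceptions were factors that other cells shared or held more of. Klf2 and Klf4, which blood flow induces in endothelium, stood at 73.7 and 46.7 CPM against 158 and 167 CPM in the other cells. Foxf1 was the lowest of the list, at 1.91 against 12.7 CPM.

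Ackr1 had the largest ratio among the genes with enough UMIs to be ranked (100 or more in the members, or as many at the level of the other cells). This atypical chemokine receptor (ENSMUSG00000037872, chr1:173331886-173333750, - strand, GRCm38), which marks the endothelium of venules, summed to 154 CPM in the old members and 4.74 CPM in the other old cells, a log2 ratio of 5.02 (95% interval 4.89 to 5.15). The interval of She ran from 4.66 to 5.33 and overlapped that of Ackr1, so the order of the top genes is not firm. Against old mesenchymal cells alone Ackr1 was 95.9-fold higher, a smaller ratio than that of Scn3a (16.6 against 0.0803 CPM) or She (24.9 against 0.177 CPM). It was not a property of all members: 28.4% held a UMI of it (25.6 to 31.4), against 1.67% of old mesenchymal cells and none of 63 Schwann marker cells, a type that should lack it (upper bound 5.69%, median 5403 UMIs, at least 3 of 6 Schwann markers and no Pdgfra). After every cell was thinned to 1000 UMIs the shares were 10.5% in the members and 0.30% in mesenchymal cells.

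The genes that followed Ackr1 in this ranking spanned low and high levels. Sele, the E-selectin that slows rolling leukocytes, stood at 43.8 against 1.60 CPM (log2 ratio 4.78). Edn1, the precursor of the vasoconstrictor endothelin 1, stood at 798 against 30.2 CPM (4.72). Grrp1 stood at 12.9 against 0.406 CPM, Gimap1 at 60.1 against 2.27 CPM, and Tmem252 at 184 against 6.77 CPM. Scn3a, a sodium channel subunit, reached 16.6 against 0.635 CPM, and Sp5, a transcription factor induced by Wnt signals, reached 59.9 against 2.27 CPM. Ctla2a, a small cysteine protease inhibitor, was the most abundant transcript of the old members after Malat1 among the genes ranked, at 10286 CPM against 447 CPM, and was held by 99.7% of them. It stood at 10240 CPM in the young members. Its close copy Ctla2b can share reads with it, and no source used here tells how such reads were counted. The smallest ratio was that of Dio3, a deiodinase that inactivates thyroid hormone, at 0.574 against 12.6 CPM.

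Leukocyte adhesion molecules stood mostly above the other cells. Of 15 compared besides the rule genes, 3 of which (Icam2, Esam and Cd34) were also on the identity list, 10 were at least 2-fold higher and 3 lower, with a median log2 ratio of 3.23. Selp (ENSMUSG00000026580, chr1:164115264-164150026, + strand), the P-selectin stored in endothelial granules, summed to 1049.7 CPM in the old members and 45.8 CPM in the other old cells (log2 ratio 4.52, 4.47 to 4.56). A UMI of it was found in 90.2% of the old members, 14.1% of old mesenchymal cells and 4.76% of Schwann marker cells. Thinned to 1000 UMIs, 55.7%, 1.38% and 0% held it. Icam1, the ligand of leukocyte integrins, stood at 318 against 33.9 CPM, and F11r, a junction adhesion molecule, at 144 against 9.13 CPM. Vcam1, another leukocyte ligand, was not set apart, at 153 against 184 CPM, and Cd44, a hyaluronan receptor, was lower, at 62.6 against 387 CPM.

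Genes that divide endothelium by vessel type were unevenly present. Venous genes were at least 2-fold higher in 10 of 19 and lower in 3, with Ackr1, Sele, Selp and Vwf at the top. Nr2f2, the transcription factor that sets venous identity, was 108 CPM in the old members and 59.5 CPM in the other cells, which fell short of 2-fold. Arterial genes gave 7 higher and 6 lower of 19 with a median of 0.09. Gja5 and Dll4, an arterial connexin and a Notch ligand, were at 1.63 and 2.01 CPM. Dll4 nevertheless had the largest ratio to the other cells of this list (log2 4.77). Of 24 capillary genes only 13 could be compared, with 3 higher and 3 lower, the largest ratio being that of Gpihbp1 (log2 4.22). Several of the 24 capillary genes were low in absolute level in the old members, Gpihbp1 among them despite its ratio. Car4 was at 0.287 CPM and Rgcc at 6.22 CPM. Gpihbp1, which carries lipoprotein lipase, was at 3.16 CPM and Cd36, a fatty acid carrier, at 8.99 CPM. Rbp7 had 0 UMIs. Fabp4, which binds fatty acids and is also made by adipocytes, stood at 433 CPM against 272 CPM.

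Lymphatic genes were present without the full set that marks lymphatic vessels. Of 16 listed, 11 could be compared, with 5 higher and 3 lower. Prox1, the transcription factor that sets lymphatic identity, stood at 32.7 against 2.50 CPM and was held by 16.8% of the old members. Flt4, the receptor of lymphatic growth factor, stood at 24.0 against 1.37 CPM, and Lyve1, a lymphatic hyaluronan receptor, at 5.36 against 0.34 CPM. Pdpn, which covers lymphatic endothelium, was lower in the members, at 44.9 against 189 CPM, and Ccl21a, a chemokine made by lymphatic endothelium, had 0 UMIs. Flt4 was found in 37.5% of members with Prox1 and in 13.2% of members without it, at medians of 11690 and 10023 UMIs. The label of blood endothelium therefore leaves a Prox1-holding share that these genes do not place.

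Genes of vessel growth lay on both sides, and the ligands among them were divided. Of 9 compared VEGF genes, 4 were at least 2-fold higher and 4 lower. Flt1, a VEGF receptor, stood at 155 against 14.6 CPM, and Pgf, its placental ligand, at 62.1 against 6.90 CPM. Vegfa and Vegfd, ligands of the VEGF family, were lower, at 33.6 against 171 CPM and 19.2 against 149 CPM. In the angiopoietin system, Angpt2, a ligand that loosens vessels, stood at 298 against 17.8 CPM and its receptor Tek at 11.3 against 0.967 CPM. Angpt1, the ligand made by mural cells, was at 0.0956 against 1.40 CPM, too few UMIs to be compared. Sprouting genes were higher in 14 of 24 compared and lower in 3. Apln, a peptide of sprouting endothelium, stood at 134 against 38.9 CPM.

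Secreted factors, vessel tone and coagulation lists had members on both sides. Of 36 vasoactive mediators and receptors compared, 12 were higher and 15 lower, with a median log2 ratio of 0.14. Of 32 growth factors compared, 14 were higher and 9 lower. Bmp4, a ligand of the BMP family, stood at 475 against 21.8 CPM, and 87.8% of old members held it. Pdgfb, which recruits pericytes, stood at 93.2 against 5.34 CPM, and Hbegf, a ligand of the EGF receptor, at 292 against 68.6 CPM. S1pr1, a lipid receptor that steadies junctions, stood at 229 against 45.3 CPM, whereas S1pr3 was lower, at 36.4 against 223 CPM. Coagulation genes gave 9 higher and 5 lower of 20. Procr, the receptor of anticoagulant protein C, stood at 528 against 82.9 CPM and Vwf, which binds platelets, at 46.7 against 2.64 CPM. Thbd (thrombomodulin) and F3 (tissue factor) were lower, at 60.6 against 156 CPM and 23.3 against 97.4 CPM.

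The remaining lists differed in direction. Junction genes were higher in 9 of 18 and lower in 2, and Tjp1, a scaffold of tight junctions, stood at 110 against 22.2 CPM. Of 11 caveolae and fenestrae genes 5 were higher and 2 lower, with Plvap, which forms their diaphragms, at 214 against 10.2 CPM. Basement membrane genes were lower in 10 of 27 and higher in 5, of which Itga6, a laminin receptor, stood at 82.3 against 6.11 CPM. Notch genes gave 5 higher and 4 lower of 14, BMP and TGF-beta genes 4 and 5 of 24, and guidance genes 7 and 6 of 20. Fatty acid genes gave 6 and 3 of 25, interferon and antigen presentation genes 3 and 8 of 33, and immediate early genes 1 and 9 of 29. Cell cycle genes gave 3 higher and 0 lower of 24, with Mki67 at 41.4 against 40.8 CPM.

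Cytokine genes did not move as 1 group. Of 33 compared, 6 exceeded the other old cells by 2-fold or more and 15 were lower. Csf3 (ENSMUSG00000038067, chr11:98701263-98703629, + strand), the growth factor of granulocytes, stood at 975 against 76.6 CPM (log2 ratio 3.67, 3.63 to 3.71), and Csf2, the growth factor of granulocytes and macrophages, at 13.3 against 1.88 CPM. Ccl2, a chemokine that draws monocytes, was abundant on both sides, at 3814 CPM in the members and 2876 CPM in the other cells. Cxcl1, a chemokine that draws neutrophils, was at 2073 CPM in the members and 3054 CPM in the other cells. Cxcl5 and Il6, a neutrophil chemokine and an inflammatory cytokine, were lower in the members, at 389 against 2211 CPM and 114 against 802 CPM. Of the NF-kB subunits and feedback genes only Traf1, an adaptor of TNF receptors, was at least 2-fold higher among 14. The kappaB consensus, searched on both strands, stood in 10 of 33 promoters of the cytokine list (30.3%, for 30 of 41 genes matched) and in 8.46% of all promoters. It stood in 21.7% of pan-endothelial, 7.14% of adhesion and 5.56% of venous promoters.

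For several of these genes the level in the members matched the level that abundant stromal RNA reached there. Set against old mesenchymal cells, 9 stromal genes stood in the old members at 0.125 to 0.201 of the mesenchymal CPM, with a median of 0.144. Il6 stood at 0.133, Saa3, an acute phase protein, at 0.140 and Cxcl5 at 0.153 of it, inside that range, and Schwann marker cells held Cxcl5 at 399 CPM and Il6 at 144 CPM. Whether these values in the members are stray RNA or low expression was not tested. Hp (0.230) and Ccl7 (0.307) lay above it, and Cxcl1 stood at 0.641 and Ccl2 at 1.30 of the mesenchymal level. Csf3 stood at 19.3 times the mesenchymal level, Icam1 at 12.2 times, Selp at 70.1 times and Edn1 at 116 times. A UMI of Csf3 was found in 83.2% of the old members (80.7 to 85.5), 27.1% of old mesenchymal cells and 12.7% of Schwann marker cells. Thinned to 1000 UMIs these shares were 48.7%, 4.86% and 0%. Macrophage marker cells, of which the old library held 91, also held Csf3, at 502 CPM.

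**Figure D3:**
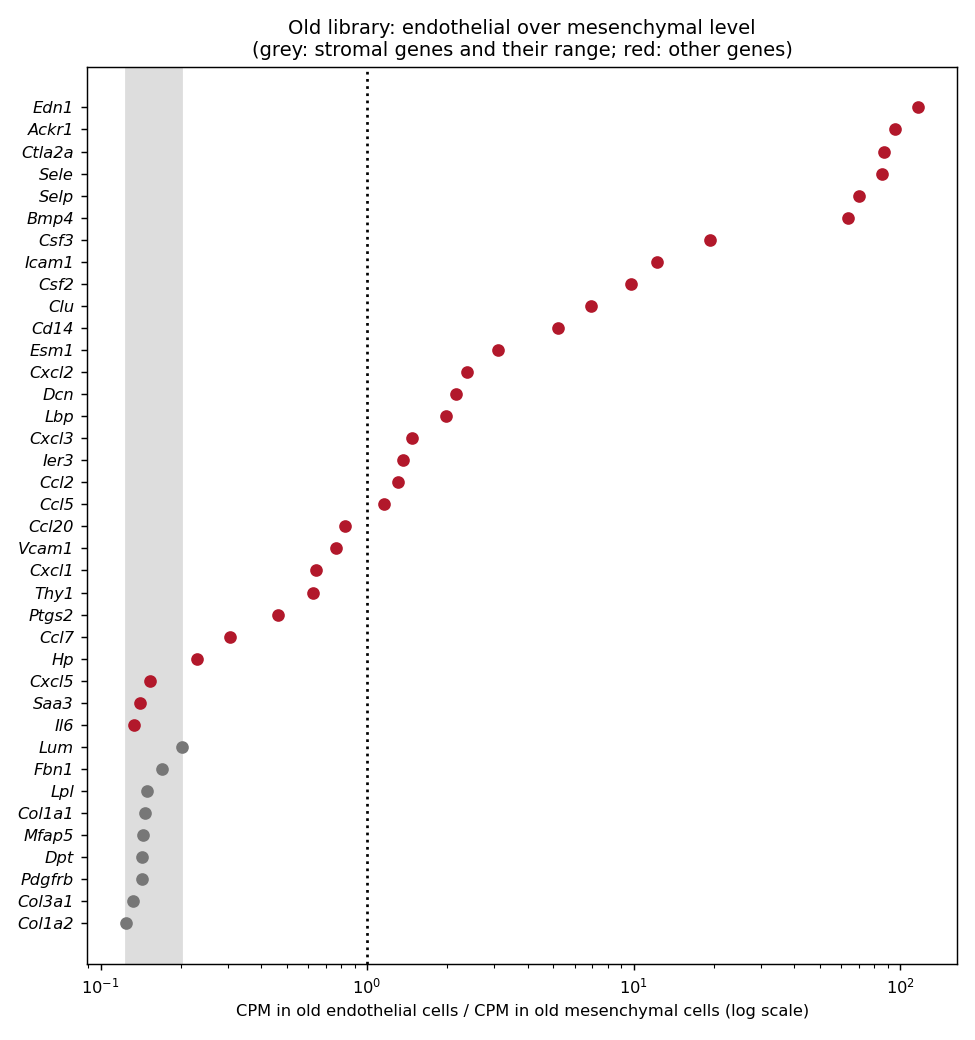
Level of each gene in the old members divided by its level in old mesenchymal cells (log axis), for stromal genes and for genes of inflammation and identity. The 9 stromal genes lie between 0.125 and 0.201, Il6, Saa3 and Cxcl5 lie among them, and Csf3, Selp and Ackr1 lie far above.

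Dcn, a small proteoglycan of fibroblastic matrix, went against the other stromal genes. Of 11 fibroblastic markers compared, 10 were at least 2-fold lower in the old members and only Dcn was higher, at 540 against 234 CPM (log2 ratio 1.21, 1.17 to 1.25). Col1a1 stood at 241 against 1592.5 CPM. The summed level of the fibroblastic list was 1428 CPM in the old members and 6379 CPM in old mesenchymal cells. Dcn was found in 94.1% of 1 subset described below, and members with Dcn held Cdh5 in 94.4% of cases against 92.9% of members without it. Col1a1 was found in 80.4% of members with Dcn and 76.4% of those without. Dcn was at 24.4 CPM in Schwann and 30.6 CPM in macrophage marker cells, below its level in the members.

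Of 9 marker lists of other cell types, 6 summed to a lower level in the old members than in old mesenchymal cells, and the macrophage, striated muscle and platelet lists did not. All 12 pericyte and smooth muscle markers compared, of 16, were lower, and the list summed to 653 CPM against 2872 CPM in mesenchymal cells. The macrophage list summed to 128 CPM in members and 125 CPM in mesenchymal cells, with 1 gene (Cd14, a receptor of bacterial lipid) higher and 7 lower of 11. Schwann, mesothelial and adipocyte lists had no member that was higher. The erythroid and platelet list summed to 101 CPM in members and 69.4 CPM in mesenchymal cells, with Pf4 at 98.1 CPM in the members, and the striated muscle list to 19.1 and 13.1 CPM. The lymphocyte list summed to 0.669 CPM, with 7 of its 10 genes at 0 UMIs. The part of stray or shared RNA in the stromal values was not tested beyond these comparisons.

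Clustering of the 953 old members on their own gave 6 subsets, whose leading genes defined them and are a description. The largest, of 297 cells (31.2%), held 21 of the 24 cell cycle markers at 2-fold or more of the other members and is called cycling. Top2a, which untangles DNA, was at 178 CPM there, Ube2c at 314 CPM against 74.2 CPM in the other members, and the cells were deep, at a median of 12734 UMIs. Its first gene by ratio, the platelet chemokine Pf4, rested on 1 cell that held 57.3% of all UMIs of it among the old members. The next subset, of 233 cells (24.4%), was led by Ackr1 at 608 CPM against 41.1 CPM and held 8 venous markers, so it is called venous-like, a name that rests on rebuilt clusters. Selp was 2231 CPM there, Sele 112, Vwf 141, Nr2f2 172 and Csf3 1551 CPM, the highest level of each of these among the 6 subsets.

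A subset of 169 cells (17.7%) was led by Scn3a, Smoc2, Lsr, Fry and Prox1 and is not named, since lymphatic, venous and capillary markers were equal in number there, at 3 each. Prox1 was 142 CPM against 10.3 CPM in the other members and was held by 55.6% of its cells. Flt4 was 70.8 CPM, Lyve1 12.4 CPM and Dcn 1408 CPM, the highest of any subset for all 3 of these genes. The smaller subset of 65 cells (6.82%) was led by Sox17, the SOX factor of arterial endothelium, at 197 CPM against 0.70 CPM (log2 ratio 8.14), held by 61.5% of its cells. It carried 10 sprouting, 7 capillary and 3 arterial markers and was given no single name. Angpt2 was 1719 CPM there, Apln 783, Edn1 2457.5 and Vcam1 1171 CPM, while Gpihbp1 and Cd36 reached 50.4 and 101 CPM. The same 65 cells held the least Selp (138 CPM), Csf3 (83.3 CPM) and Nr2f2 (15.3 CPM).

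A subset of 127 cells (13.3%), led by Palmd and Plac8, had leading genes of small ratio, the largest a log2 of 1.02, and its lowest gene was Ackr1 at 17.8 CPM. The last subset, of 62 cells (6.51%), was led by Cfd, Meg3, Il11, Pde10a and Wisp1 and carried 6 fibroblastic and 4 pericyte markers beside its rule markers. Col1a1 was 1101.5 CPM there against 150 to 159 CPM in the other subsets, the median depth was 15004 UMIs, and 49 of the 62 cells had doublet scores in the removed range. Il6 too was highest there, at 366 CPM against 78.3 to 104 CPM, while Csf3 ranged over the 6 subsets from 83.3 to 1551 CPM. Without these 62 cells the old members number 891. A lower resolution gave 5 subsets and a higher one 11, and the 65 cells led by Sox17 and the 62 led by Cfd came out in the same numbers in both.

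**Figure D4:**
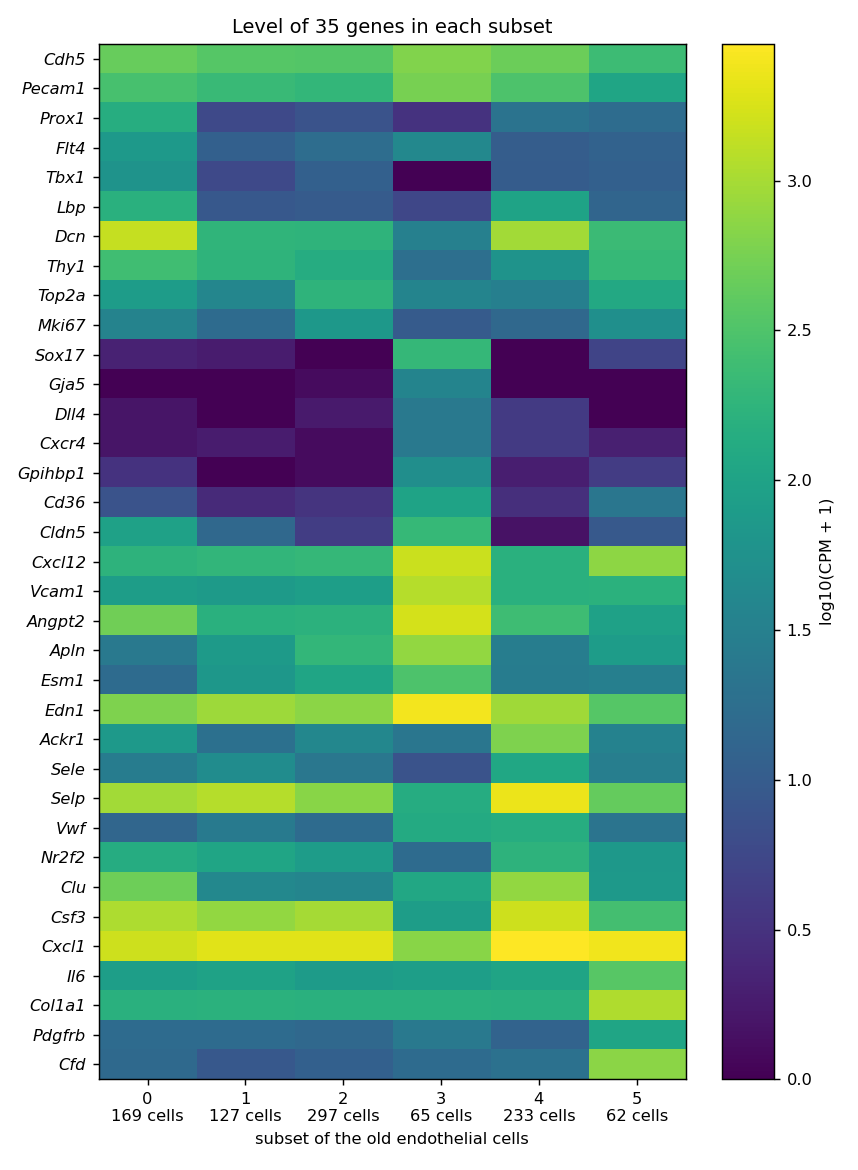
Levels of marker genes (log10 of CPM + 1, color scale) in the 6 subsets of the 953 old members, with the number of cells of each. Ackr1, Vwf and Sele are highest in the venous-like subset, Prox1 and Dcn in the unnamed subset of 169 cells, Sox17 in that of 65 cells and Col1a1 in that of 62 cells.

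The comparison of old with young members sets 953 cells against 32, and a gene with few young UMIs rests on a handful of cells. Of 2500 genes compared, 2.76% exceeded the young members by 2-fold or more, 3.40% were lower by as much, and the median log2 ratio was -0.06. Identity genes were mostly near each other, with 0 of 18 pan-endothelial genes 2-fold higher and 3 lower, the lowest being Cldn5 at 28.8 CPM in old and 73.2 CPM in young members (log2 -1.35). Cldn5 did not reach 2-fold with at least 2 rule markers (-0.58), with the mean of the cells' own CPM (-0.66) or without its highest cell (-0.90). Edn1 was at 798 and 1281 CPM. Genes of venules and inflammation differed more: of 13 cytokine genes compared, 8 were higher in the old members and 0 lower (Cxcl5 and Il6 among the 8), and of 10 adhesion molecules 3 were higher and 0 lower. Those 10 include the rule genes Pecam1 (242 and 314 CPM) and Emcn (718 and 869 CPM), which chose the cells.

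Csf3 stood at 975 CPM in old and 12.2 CPM in young members (log2 6.32, 4.96 to 8.20). A UMI of it was found in 83.2% of old members and in 3 of 32 young members, which held 4 UMIs together, and the median cell was at 571 CPM in the old and 0 in the young library. Cxcl1 stood at 2073 and 30.5 CPM (log2 6.09), and 8 of its 10 young UMIs came from 1 cell. Cxcl2, a related neutrophil chemokine, stood at 261 and 21.3 CPM, with all 7 young UMIs in 1 cell. Old Schwann marker cells held Cxcl2 at 318 CPM and macrophage marker cells at 2104 CPM, both above the old members. The level in the old members was 2.37 times that in old mesenchymal cells. With cells thinned to equal depth, 12.6% of old members, 6.35% of old Schwann marker cells and 6.26% of old mesenchymal cells held Cxcl2. Whether its level in the members is stray RNA or expression was not tested. Csf3, Cxcl1 and Cxcl2 were also higher in old than in young mesenchymal cells, by log2 ratios of 7.59, 6.73 and 9.63, so both cell classes held more in the old library. Cxcl5 (log2 6.99), Il6 (3.64, against 0 young UMIs) and Saa3 (3.57) were among the 10 largest. Relative to old mesenchymal cells, their levels in the old members lay inside the range of the stromal genes. Ccl2 was at 3814 and 1113 CPM, with medians per cell of 2552 and 256 CPM.

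Adhesion genes of venules were the other group above. Selp, Ackr1 and Sele were also higher in old than in young mesenchymal cells, at low levels there. Selp stood at 14.977 CPM in old and 1.2668 CPM in young mesenchymal cells. The log2 ratio of Ackr1 in mesenchymal cells was 2.53, on 1.6053 and 0.27808 CPM. Selp stood at 1049.7 CPM in old and 235 CPM in young members (log2 2.16), with medians per cell of 823 and 196 CPM, and was held by 90.2% of old members and 23 of 32 young members. Ackr1 stood at 154 and 30.5 CPM (2.34, 1.45 to 3.40), held by 5 of 32 young members. Sele stood at 43.8 and 9.15 CPM (2.26, 0.70 to 4.54), held by 3 of 32, so its interval is wide. It had too few young UMIs to be among the genes compared. Its log2 ratio in mesenchymal cells was 5.06, on 0.514 and 0.0154 CPM. Vwf, a venous gene as well, went the other way, at 46.7 and 159 CPM (-1.76, -2.18 to -1.32), with a UMI in 26.1% of old and 59.4% of young members. In mesenchymal cells its log2 ratio was 1.45, on only 1.01 and 0.371 CPM. With at least 2 rule markers its ratio in the members was -1.02. Icam1 was at 318 and 247 CPM, with 82.7% and 81.2% of cells holding it. Of 12 venous genes compared, 3 were higher and 2 lower, so the list did not move as 1 group.

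**Figure D5:**
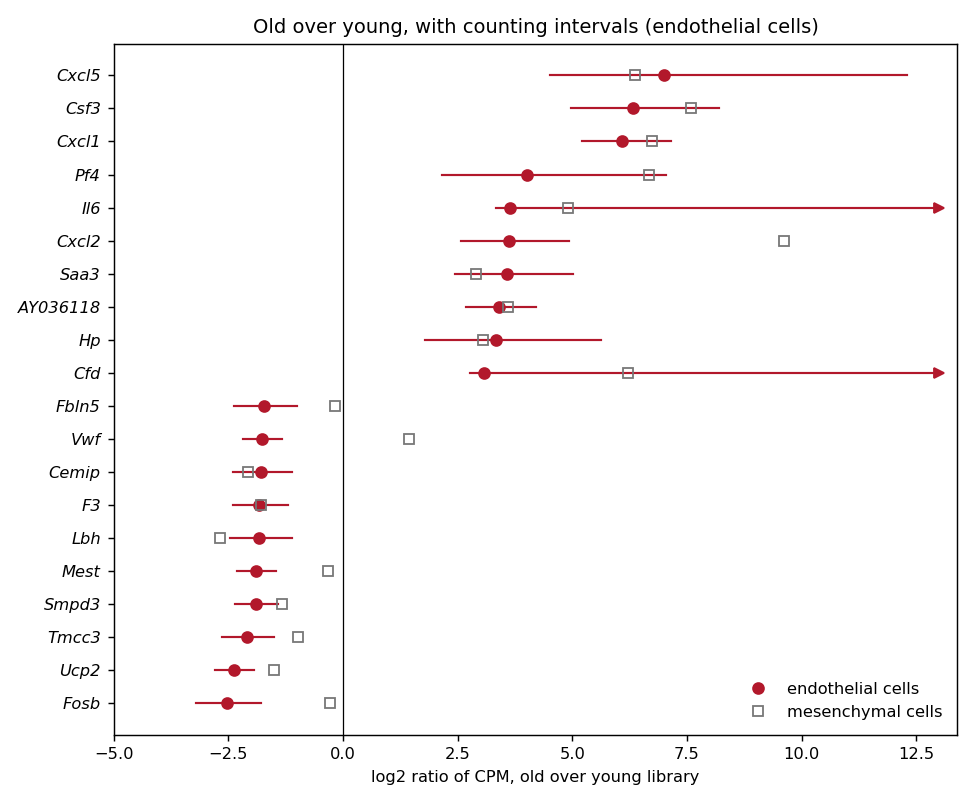
Log2 ratio of old to young for named genes in the members, with exact 95% intervals that cover counting error only, and the same ratio in mesenchymal cells. Csf3, Cxcl1 and Cxcl5 lie far to the right in both. Vwf lies to the left in the members and to the right in mesenchymal cells, on only 1.01 and 0.371 CPM there. Arrows mark intervals without an upper end, where the young members held 0 UMIs.

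Genes lower in the old members included factors of flow, immediate early response and coagulation. Fosb, an immediate early factor, had the smallest ratio, at 11.1 against 64.0 CPM (log2 -2.53), and Ucp2, a mitochondrial carrier, stood at 31.8 against 165 CPM (-2.37). Mest, an imprinted gene of growing tissue, stood at 45.1 against 168 CPM, and F3 at 23.3 against 82.3 CPM. Klf2 stood at 73.7 against 235 CPM (-1.67), and Calcrl, the receptor of adrenomedullin, at 36.7 against 107 CPM (-1.54). Of 19 immediate early genes compared, 5 were lower and 3 higher, the highest being Ier3. Of 5 VEGF genes 3 were lower and 0 higher, and of 12 coagulation genes 3 were lower and 0 higher. The VEGF genes that were lower include Kdr, a rule gene that chose the cells, at 42.3 against 85.4 CPM.

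Other large ratios rested on few cells. Pf4 stood at 98.1 against 6.10 CPM, and 42.0 CPM without the cell that held 57.3% of its UMIs. Cfd, a complement factor made by adipocytes, stood at 77.4 CPM against 0 young UMIs, and 1 old cell held 76.3% of its UMIs, without which the level was 18.4 CPM. Without the subset of 62 cells, its log2 ratio was 0.48 in place of 3.08. Hp stood at 93.2 against 9.15 CPM, and Schwann marker cells held it at 89.6 CPM. The sizes of the largest ratios depended on the settings. The log2 ratio of Csf3 ran from 4.37 with cells thinned to 2000 UMIs to 7.26 when each gene's highest cell was left out in each library. That of Cxcl1 ran from 4.42 with the mean of the cells' own CPM to 8.38 without the highest cell. The lowest value of Cxcl2 was 1.89, with the mean of the cells' own CPM. After thinning, Cxcl5 was at 2.97, Hp at 0.93 and Pf4 at 0.79. Before thinning the young members held only 1, 3 and 2 UMIs of these genes, and 4 of Csf3. Where thinning left 0 young UMIs the ratio used 3, which lowers it, so the thinned values do not measure a smaller difference. Esm1 and Dcn were higher in the old members by log2 ratios of 1.98 and 1.74, at 72.3 against 18.3 CPM and 540 against 162 CPM.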

How the data were processed

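The authors deposited 2 tables of unnormalized UMI counts per gene and cell barcode, written by Cell Ranger 3.0.1 per the file headers. The genome build was mm10 per the submitters' processing notes. The annotation release and the rule for keeping barcodes appear in none of the sources used here. Of 31053 genes, 30934 were found in GENCODE vM21, which gave positions. The members, the 39 gene lists and the comparisons were chosen with earlier results of these data known. Counts were summed per library and group, scaled to the group's total and compared as log2 ratios. A gene was compared where the members held at least 20 UMIs, or would at the other group's level, and 2-fold was the threshold.

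Named genes were, by rule, the 15 largest and 5 smallest ratios of old members to other old cells, the 10 most abundant genes, the 10 largest and 10 smallest ratios of old to young members, the 10 leading genes of each subset, and any list member. The rankings between groups skipped genes of mitochondria, ribosomal proteins, haemoglobins, immunoglobulins and the sex chromosomes. For shares at equal depth, each cell was thinned to 1000 UMIs, which left out 1 old member and 3 old mesenchymal cells. Subsets came from Leiden clustering at resolution 0.5 of 15 neighbours in 20 principal components of 1500 variable genes (scanpy 1.11.5, igraph 0.11.9). A subset was named only where at least 3 markers of 1 list were held by 25% or more of its cells, at 2-fold or more of the other members, and its leading genes did not spread over several lists. Scrublet marked 0 cells with its automatic threshold, so doublets were kept, and the highest scores (0.8% per 1000 cells) were removed as an alternative. The other alternatives changed the marker number, the Pdgfra limit, the cell filter, the comparison cells, the scaling, the depth and the UMI minimum. Leaving out the subset of 62 cells and leaving out each gene's highest cell were chosen after seeing the data. Computation used Python 3.11.15, numpy 2.4.6, scipy 1.17.1 and pandas 2.3.3, and was tested on simulated data. Promoters came from the RefSeq table of GRCm38.p6.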

Additional observations from a re-analysis of the deposited data

How the results depend on the processing

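The share of old cells that met the rule was 5.94% with at least 4 markers, 8.07% with at least 2, 9.71% with no limit on Pdgfra, 5.31% without cells holding any of 6 genes of other types and 6.50% without the subset of 62 cells, against 6.95%. The young share was 0.463% with at least 2 markers, against 0.251%. With at least 2 markers, 148 genes were 2-fold higher and 188 lower in old than young members, against 69 and 85. Without the Pdgfra limit 105 were higher. With cells thinned to 2000 UMIs, which leaves fewer genes to compare, 25 were higher and 12 lower, 65 genes were higher in the young members than in other young cells (against 346) and 1099 were lower in the old members than in other old cells (against 1745). A minimum of 50 UMIs left 27 higher and 18 lower between the ages, and 117 higher in the young members. With no minimum the counts were 888, 6287 and 10728, and 6316 higher and 2695 lower in the old members, because genes at 0 UMIs were set to 3. Leaving out each gene's highest cell, chosen after seeing the data like the subset left out, gave 119 higher and 42 lower between the ages.

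Of 332 named or listed genes past 2-fold in the old members, 308 to 332 stayed there in the same direction under each alternative, and of 60 between the ages 40 to 60 did. Direction reversed for Adipoq (log2 0.10) and Ctss (0.089) against mesenchymal cells, for Apold1 (0.027) and Tnip1 (-0.047) between the ages after thinning, and for Rsad2 (-2.58) without its highest cell. The cause was not tested, except that 93.5% of the Rsad2 UMIs came from that cell. No paired analysis was possible because each age has 1 library. The 32 young members and their 327926 UMIs limit every comparison between the ages: a gene with 0 young UMIs may reach 9.15 CPM.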

Other observations

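Some genes were held together by the same old members, which is given as counts over the 953 cells with no test. Selp was held by 99.3% of the 271 cells with Ackr1 and 86.7% of those without it, at median depths of 9230 and 10547 UMIs. Csf3 was held by 88.7% of the 860 cells with Selp and 32.3% of those without, at medians of 10518 and 7644 UMIs. Vwf and Ackr1 overlapped in part: 49.8% of the 249 cells with Vwf held Ackr1, against 20.9% of those without. Esm1, a proteoglycan of sprouting endothelium, was held by 40.8% of the 375 cells with Apln and 14.4% of those without, at medians of 11885 and 9069.5 UMIs. Gpihbp1 was found in 15 cells, and all 15 held Fabp4.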
